A study of Arachis hypogaea with 3 samples.

Results

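Aerial gynophores, named S1, and gynophores that had swollen into young pods in the soil, named S3, are the end points of 3 stages sampled in peanut (Arachis hypogaea). The gynophore is the stalk that grows down from the fertilized flower and carries the ovary into the ground. The comparison covers every sequence of the deposited expression table that has a description from a protein database search (Blast nr) and an RPKM, the number of reads scaled to the length of the sequence in kilobases and to the size of the library, of at least 10 in S1 or in S3. The rule left 30147 of the 83579 sequences, of which 20221 were assembled unigenes and 9926 were public peanut sequences. The S1 library was made from gynophores above the ground that were green or purple and 3 to 5 cm long. For S3, gynophores grown in the dark below the soil with pods of 2 to 3 mm were taken. An intermediate stage, S2, was collected about 3 days after entry into the soil, and its values stand beside those of S1 and S3. All 3 came from field plants of the cultivar Luhua 14, so the stages differ in age, light and soil contact together, and these cannot be told apart. Each stage has 1 library of poly(A) RNA, and the sources used here do not say how many gynophores were pooled for it or which section of the gynophore the RNA came from.

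A gynophore elongates from a meristem behind its tip while the embryo at the tip stays small, and both photosynthesis and epidermal pigments belong to its aerial life. Below the ground elongation ends, the embryo resumes growth and the ovary wall thickens into the shell. Genes of the photosystems, of wall loosening and wall building, of hormones and of storage bear on the ends of this series.

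Of 20734295 uniquely aligned reads, S1 held 33.3%, S2 held 32.2% and S3 held 34.5%, so the ends were read to nearly the same depth. Members took 86.6% of the reads in S1 and 84.5% in S3. A level below is an RPKM, or for the summed reads of a group the RPM, which is scaled to library size in the same way but not to length, and a difference is the ratio of RPKM + 1 between S3 and S1, or its log2. Since a stage is a single library, neither a replicate check nor an SD nor a p-value is possible. Each 95% interval was computed from the reads, by the exact Poisson method for an RPKM and the exact Clopper-Pearson method for a ratio of RPKM. The intervals cover counting error only, so they compare these libraries and not the stages. They stand in parentheses after a value. Where 3 values follow a sequence they are its RPKM, or its reads where the sentence says reads, in S1, S2 and S3 in that order. For a sequence that 1 library missed, the text gives the fold that 3 reads there would allow, as at least so many fold.

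Of the 30147 members, 1898 (6.3%) were at least 4 times lower in S3 than in S1 and 1611 (5.34%) were at least 4 times higher. At a limit of 2 times, 5645 (18.7%) were lower and 6299 (20.9%) were higher in S3. The counting interval of the ratio lay wholly on 1 side of 1 for every member past the limit of 4 times. The limits on level and ratio together left almost no room for another outcome. At 2 times this held for 5600 of the 5645 lower and 6231 of the 6299 higher members. A member could qualify through either library, and 19456 reached an RPKM of 10 in both, 4958 in S1 alone and 5733 in S3 alone. Among those that reached it in both, 448 (2.3%) were at least 4 times lower and 335 (1.72%) at least 4 times higher. Just inside the limit, at a larger RPKM of 10 to 11, 4.42% of 1537 sequences were at least 4 times lower and 5.34% higher, and just outside, at 9 to 10, the shares were 3.29% and 5.03% of 1550. The balance of the directions depended on how the libraries were scaled. Higher sequences were 45.9% of those past 4 times with the authors' RPKM, 34.4% once libraries were rescaled by the median of ratios, which moved every log2 ratio by -0.20, and 35.2% after rescaling by the upper quartile, which moved it by -0.18. The median log2 ratio was 0.09 over the 52419 annotated sequences with a read in S1 or S3, and list medians below are to be read against it.

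The members at least 4 times lower in S3 together took 121021 RPM in S1, 67460.3 in S2 and 15964 in S3, with a median RPKM of 37.1, 16 and 3.88. For the members at least 4 times higher in S3 the sums were 12747, 47204 and 90048 RPM, and the median RPKM was 3.67, 10.2 and 29.5. In both sets the level of S2 lay between the end points. Because the sets were chosen by an extreme ratio between S1 and S3, a library outside that choice tends to fall between them. The position of S2 in these sums and medians is therefore no evidence of a gradual change. A description that names no function, such as unknown or hypothetical protein, was held by 1031 of the lower and 937 of the higher members, which is 54.3% and 58.2%, against 59.9% of all members.

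**Figure D1:**
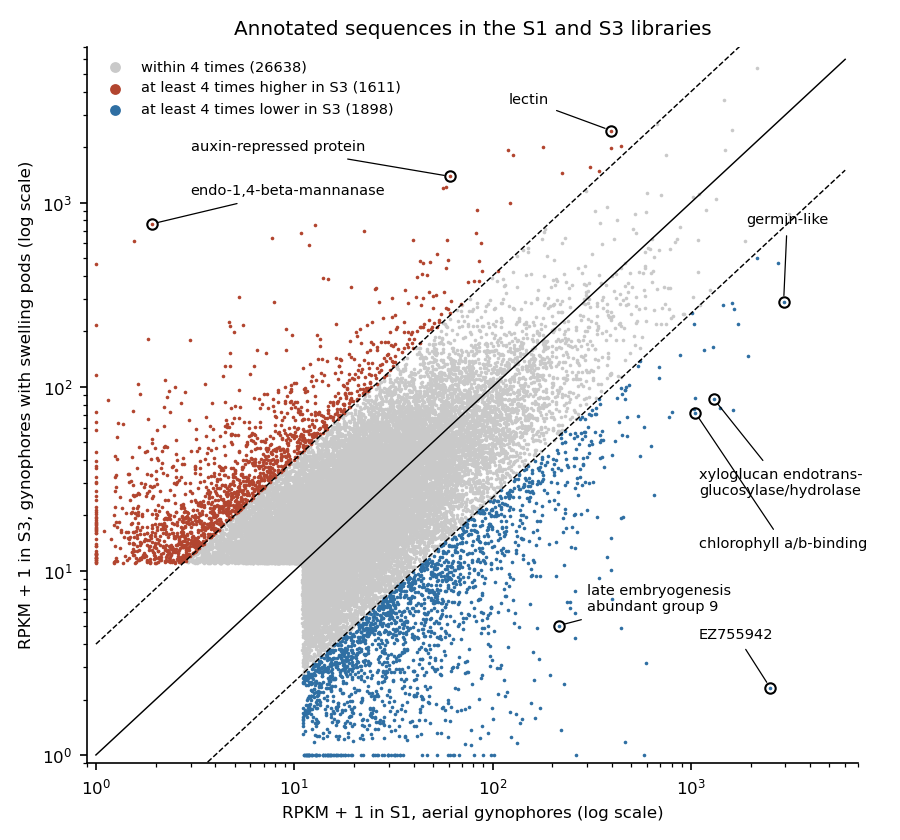
RPKM + 1 of each of the 30147 members in S1 (horizontal) and in S3 (vertical), both on log scales, with equality as a solid line and ratios of 4 as dashed lines. The 1611 members above the upper dashed line and the 1898 below the lower one are coloured, and the empty corner at the lower left is the limit of RPKM 10.

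The labels were checked against marker genes. Light-harvesting chlorophyll a/b-binding proteins, which mark green tissue, summed over 23 sequences to 2995, 109 and 266 RPM in S1, S2 and S3, so the aerial library stood apart from both soil libraries, and all 9 members of that list were at least 4 times lower in S3. Sequences named as seed storage proteins, allergens or oleosins (77) summed to 1003, 5065 and 2719.96, led by the allergen Ara h 8, and sieve element proteins (46), which mark the phloem, to 1245, 903 and 450.1. Ara h 8 (EZ726452), a pathogenesis-related protein and not a store, held 31% of the first sum in S1 and 49.4% in S3. That sum therefore does not mark storage cells alone. B-type cyclins, their kinases and core histones, which mark dividing cells, summed to 2543, 2885 and 1664. The wider lists did not share this fall, with cell cycle proteins at 2046, 2033 and 2486 RPM and all histones at 4253, 4809 and 4546. Pollen-named proteins (3 sequences) summed to 15.6, 9.74 and 9.93, and the search for leghemoglobin, the defining protein of root nodules, found only a reductase that acts on it (146, 139 and 57.8). The libraries are of bulk tissue, so fewer cells of a type and less RNA per cell cannot be told apart in any result given here. The part of a change in cell types in these results was not tested.

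The largest difference of all was a sequence without a named function. EZ755942, with a hypothetical protein as its match, had 12830, 374 and 7 reads and an RPKM of 2509 (2466 to 2553), 75.7 (68.2 to 83.8) and 1.32 (0.532 to 2.73), a ratio of S1 to S3 of 1896 (919.99 to 4717). It was among the 5 most abundant members in S1 and close to undetected in S3. EZ757792, annotated as a hydrolase of ester bonds, had 2545, 23 and 0 reads and was at least 878-fold lower in S3. Unigene69514, which has the same best match, was at 467, 4.57 and 0.178. The study calls that unigene a GDSL-motif lipase, one of a family of lipases and esterases that act in lipid metabolism and on surface polymers. Both sequences were already low in S2, with 23 and 24 reads.

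Pigment and wall genes were among the rest of the 12 largest differences toward S1. UGT78K1 (Unigene59800), a glucosyltransferase of the anthocyanin pathway, had 695, 6 and 0 reads and was at least 239.7-fold lower in S3. Unigene66694, which carries the term cell wall organization, had an RPKM of 594, 68.3 and 2.17, and a proline-rich protein (EZ721152), a class of structural wall protein, 132, 23.5 and 0.16. An extensin/nodulin protein (EZ726205) was at 164, 0.422 and 0.591, so nearly all of its difference lay between S1 and S2. A disease resistance response protein (JK197443) went the same way with 485, 6 and 1 reads. In contrast, a gibberellin 20-oxidase (Unigene27648), an enzyme of the last steps of gibberellin synthesis, had 116, 126 and 0 reads, and Unigene58826, matched to a predicted protein with the term response to radiation, had 255, 155 and 0. For this pair S2 was near S1 and S3 held no read, so that they were at least 40-fold and at least 87.9-fold lower in S3. The set was completed by GW972088, a predicted protein at 222, 8.72 and 0.37, and by Unigene65534, a helix-loop-helix transcription factor at 172, 11.6 and 0.793.

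A pair of sequences named for enzymes that open mannan, a hemicellulose of plant walls and of many legume seeds, had the largest ratios of RPKM + 1 toward S3. An endo-1,4-beta-mannanase (JK195448) had 4, 91 and 3453 reads and an RPKM of 0.917 (0.25 to 2.35), 21.6 (17.4 to 26.5) and 765 (740.1 to 791), a ratio of S3 to S1 of 834 (326 to 3064). Another sequence of that name, Unigene50234, had 0, 20 and 907 reads and was at least 292-fold higher in S3. Whether these are pieces of 1 transcript cannot be told without their sequences. The other endo-beta-mannanase members, Unigene68010 at an RPKM of 14.8, 14.2 and 3.84 and Unigene90 at 35.3, 38.9 and 16.4, were lower in S3 by more than 2 times and less than 4. EZ721690, a predicted protein, had 5, 3332 and 5700 reads, a ratio of 1102 (472 to 3395), and reached most of its level by S2. So did JK179574, a hypothetical protein with 0, 405 and 502 reads. Unigene25731, with 0, 418 and 255 reads and pyrophosphatase as its only term, was highest in S2. An apyrase (Unigene1708), an enzyme that splits ATP and ADP, was also highest in S2, with 1, 320 and 223 reads.

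Of the others of the 12 largest differences toward S3, 5 had most of their difference in RPKM between S2 and S3. Of a pair of NAC transcription factors, a plant family with roles in organ boundaries, secondary walls and senescence, JK195778 had 0, 3 and 303 reads and was at least 97.6-fold higher in S3. Unigene42291 had 1, 3 and 167 reads, a ratio of 161 (28.6 to 6414). EZ722525, unnamed but with the term response to osmotic stress, had 1, 4 and 583 reads. EZ736365, also unnamed, had an RPKM of 6.76, 58.7 and 644, and Unigene59769, a hypothetical protein with oxidoreductase as its term, 0, 4.71 and 63.7. In these 5 sequences the RPKM of S2 was closer to that of S1 than to that of S3. An asparagine synthetase (Unigene28744), which makes the main nitrogen transport amino acid of many legumes, was higher at each stage than at the one before, with 12, 260 and 861 reads and a ratio of 69.4 (39.5 to 135).

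**Figure D2:**
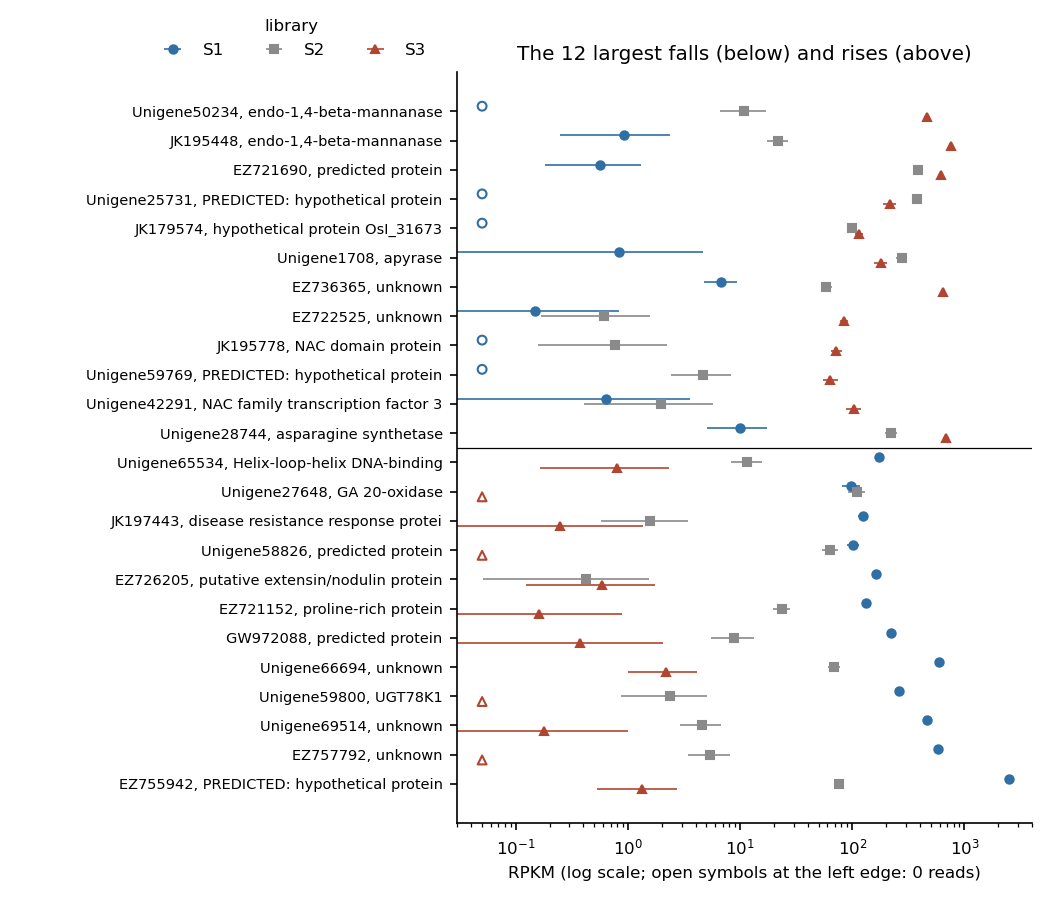
RPKM (log scale) of the 12 members with the largest ratio of RPKM + 1 of S1 to S3 and the 12 with the largest of S3 to S1, in each library, with 95% Poisson intervals and open symbols for libraries without a read. In the NAC factors S2 lies near S1, while EZ721690 is already within a few times of its S3 level in S2 and Unigene25731 is highest in S2.

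Apart from EZ755942, the most abundant members differed less. In S1 the highest RPKM belonged to EZ725074, an unnamed sequence at 3113, 3946 and 864, followed by a germin-like protein (EZ739983), a secreted glycoprotein of the wall, at 2935, 1919.6 and 288, a lipoxygenase (JK186994), which oxidizes fatty acids, at 2736, 2151 and 468, EZ755942, and methionine synthase (EZ722334), which supplies methyl groups, at 2159.7, 1525 and 497. All 5 were lower in S3, with log2 ratios of -1.85 to -10.08. In S3 the highest were JK179307, unnamed, at 2149, 3288 and 5365, SGF14a (EZ723575), a 14-3-3 protein of signalling, at 1471, 1645 and 3587, EZ721242, which carries the term response to hormone, at 676, 1466 and 2663, GW978717, unnamed, at 1608, 2084 and 2492, and a lectin (EZ735837), a sugar-binding protein, at 394, 2685 and 2463. All 5 were higher in S3 than in S1, with log2 ratios of 0.63 to 2.64, and only the lectin passed 4 times.

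Named functions were grouped into 49 lists by words in the description, and 2482 members (8.23%) fell into at least 1 list. Because members that qualified through 1 library alone had to differ in that direction, the counts are descriptions, set beside the 6.3% lower and 5.34% higher of all members. Counts at 2 times stand against 18.7% lower and 20.9% higher of all members. For the same reason the medians below are over every sequence of a list with a read in S1 or S3, whatever its level. Where a median is said to keep or change its sign under alternatives, it is instead the median over members, as each alternative defines them. No list was tested.

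**Figure D3:**
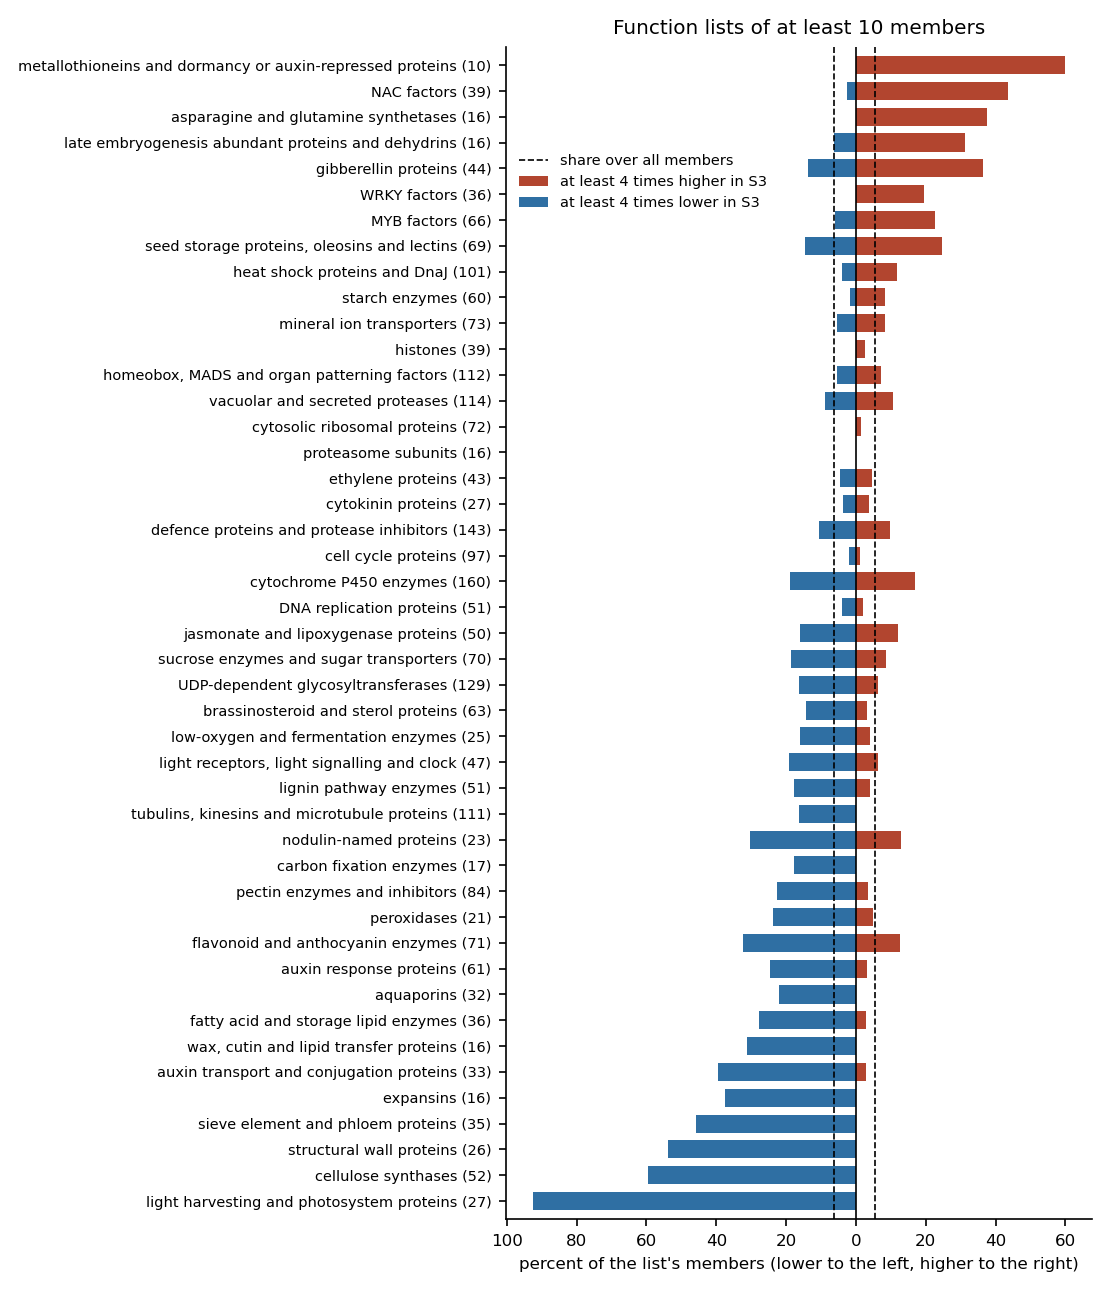
Percent of members at least 4 times lower (left) or higher (right) in S3 than in S1, for each function list of at least 10 members. The number of members is in parentheses, dashed lines are the shares over all members, and smaller lists are not drawn. Photosystem, cellulose synthase, structural wall and sieve element lists stand at the lower end, and NAC, asparagine synthetase and metallothionein or auxin-repressed lists at the upper end.

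The photosynthetic apparatus had the largest share of members past 4 times of the 49 lists. Of 27 members of light harvesting and the photosystems, which capture light and split water, 25 were at least 4 times lower in S3, the other 2 were at least 2 times lower, and 0 were higher. Over the list's 61 sequences with a read the median log2 ratio was -1.69, and 17 of the 27 members qualified through S1 alone. The summed reads were 3996, 223 and 381 RPM in S1, S2 and S3, so S2 lay below S3. A pair of chlorophyll a/b-binding proteins of photosystem II led the list. EZ723829 had 8203, 182 and 571 reads and an RPKM of 1054 (1031 to 1077), 24.2 (20.8 to 28) and 70.9 (65.2 to 77), and EZ721288 1047, 35.1 and 85.5. The S3 level of each was above its S2 level, with intervals that do not overlap in EZ723829. Subunits of photosystem I were also lower in S3. PsaH (EZ755291) was at 260.5, 19.6 and 19.4, a ratio of S1 to S3 of 13.4 (10.9 to 16.6), and PsaD (EZ722761) at 65.6, 5.39 and 2.13, a ratio of 30.8 (17 to 62.4).

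Carbon fixation enzymes had fewer members past the limit. Of 17 members, 3 were at least 4 times lower, namely the small subunit of ribulose bisphosphate carboxylase (EZ723461, 156, 10.6 and 9.21) and a pair of rubisco activases (EZ734812 and EZ732114), the chaperones that free its active site. The subunit-binding chaperonins EZ732671 and EZ722748, which fold the large subunit, differed less. The first was at 103, 63.9 and 69.6 and the other at 111, 92.8 and 118, log2 ratios of -0.55 and 0.09. The list's median over all its sequences with a read was -0.55, while over its members it was -0.19 and turned to 0.33 under 1 alternative.

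Light receptors, light signalling and clock genes went both ways, with 9 of 47 at least 4 times lower and 3 higher. A phytochrome kinase substrate (Unigene67610), a component of phytochrome and phototropin signalling, was at 56, 21.2 and 2.66. The clock gene GIGANTEA (Unigene72187) was nearly level, at 134, 73.9 and 105, a log2 ratio of -0.35. The 3 higher members were a CONSTANS-like regulator (Unigene64306, 0, 0 and 48 reads), a clock gene of the LHY and CCA1 class (Unigene58389, 14, 5 and 75) and a phototropin (Unigene5434, 15, 32 and 71), which perceives blue light. The sources used here give no time of day for the collection, and its part in the clock genes was not tested.

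Genes of the protective surface were lower late in the series. Of 16 members for wax, cutin and lipid transfer, 5 were at least 4 times lower and 0 higher, and the summed reads were 1360.4, 1475 and 245 RPM. In the sum the difference lay between S2 and S3. A bifunctional inhibitor/lipid-transfer protein (EZ742210) was at 552, 532 and 41.1 and a lipid transfer protein (EZ725383), of the class that carries wax and cutin monomers, at 542, 535 and 68.6, ratios of S1 to S3 of 13.4 (11.7 to 15.4) and 7.91 (7.08 to 8.86). The others past the limit were the non-specific lipid-transfer protein EZ732142 and a pair of beta-ketoacyl-CoA synthases, EZ748647 and Unigene49095, which elongate the fatty acids of waxes.

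Flavonoid and anthocyanin enzymes, which make the pigments and ultraviolet screens of the epidermis, had 23 of 71 members at least 4 times lower and 9 higher, with 2724, 2078 and 1078 RPM. Those named here stand at several steps of the pathway to anthocyanin. Chalcone synthase (JK153418), the first enzyme, had 1258, 439 and 31 reads and an RPKM of 342, 123 and 8.14. Dihydroflavonol 4-reductase (Unigene71925), a late enzyme, was at 259, 99.4 and 4.87, and the flavonoid 3-O-glucosyltransferase Unigene51169 at 136, 1.59 and 0.496, with ratios of S1 to S3 of 53.2 (39.8 to 72.5) and 275 (49 to 10909). The largest difference toward S3 on the list was a flavonoid prenyltransferase (GW990733, 1, 89 and 86 reads), an enzyme of prenylated phenolics. Stilbene synthases, which make resveratrol in peanut, had 9 members of 40 sequences, and 4 of these share domain names with ketoacyl synthases. Of the 5 named as stilbene or resveratrol synthases, 4 were at least 4 times higher in S3 and highest in S2, such as the resveratrol synthases GW979497 (3.27, 63 and 16.9) and X62300 (0.64, 23.2 and 10.4). Near-identical copies are common in this family, and a read that matches several copies was counted for none of them. The list's median changed sign under several alternatives.

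In the cell wall, most cellulose synthase members were lower in S3. Of 52 cellulose synthase and related members, 31 were at least 4 times lower and 0 higher, the median over 66 sequences with a read was -1.99, and 29 of the members qualified through S1 alone. The summed reads were 1767, 1343 and 635 RPM. Cellulose synthase 4 (Unigene34233) was at 94, 63.3 and 3.6, a ratio of S1 to S3 of 26.1 (10.9 to 81.7). The most abundant pieces, a catalytic subunit 6 (Unigene60139, 304, 203 and 211) and JK163908 (118, 88.9 and 76.1), differed by log2 ratios of -0.52 and -0.62. Another piece named subunit 6, Unigene21442, was at 63.8, 38.4 and 127. Pieces of the same name thus differed in opposite directions, and RPKM values of fragments cannot be joined into genes here.

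Genes of wall loosening were lower too. Expansins, which slide wall polymers past each other during growth, had 6 of 16 members at least 4 times lower and 0 higher, with a list median of -1.22, and their summed reads were highest in S2, at 336, 449.96 and 119 RPM. The expansin Unigene19425 had 248, 436 and 5 reads, while expansin A5 (EZ752826) was at 67.3, 65.7 and 23.6 and alpha-expansin 4 (EZ747800) at 48.3, 74.6 and 32. Xyloglucan enzymes, which cut and rejoin the hemicellulose that ties cellulose together, had 3 of 9 members past the limit and all lower. Their reads, 2098, 1254 and 265 RPM, came mostly from 1 endotransglucosylase/hydrolase (EZ735377, 1306, 715 and 84.6), which held 84.5% of the list's reads in S1. Another, EZ741165, had 284, 0 and 0 reads, at least 97.9-fold lower, and the third was a xyloglucan endotransglycosylase (Unigene4493, 61, 54 and 6 reads).

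Pectin enzymes and their inhibitors had 19 of 84 at least 4 times lower and 3 higher. A pectinesterase with its inhibitor domain (JK155750) was at 38.4, 23.1 and 0.538, and the abundant pectin methylesterase EZ735458, which removes methyl groups from pectin, peaked in S2 at 392, 1109 and 229.96. A polygalacturonase (EZ757636), which cleaves the pectin backbone, was higher in S3, with 61, 151 and 480 reads and a ratio of 7.61 (5.82 to 10.1), and so were the pectinesterases Unigene49229 and JK201179, at 1.63, 35.4 and 13.6 and at 1.58, 4.08 and 10.7. Of structural wall proteins, 14 of 26 were at least 4 times lower and 0 higher, the fasciclin-like arabinogalactan protein FLA2 (EZ721181, 365, 249.6 and 35.7) among them. The most abundant proline-rich protein (GW964573) was instead at 327, 1857 and 904 and a glycine-rich protein (EZ725060) at 224, 219 and 606, both higher in S3 by less than 4 times.

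Lignin pathway enzymes, which build the phenolic polymer of woody walls, had 9 of 51 at least 4 times lower and 2 higher, with the highest sum in S2 (2866, 4081 and 1591 RPM). The shared early enzymes phenylalanine ammonia-lyase (JK188763) and cinnamate 4-hydroxylase (EZ727157) were lower in S3, the first at 231, 242 and 89.1 and the other at 230.2, 447 and 135. Laccase 1b (Unigene72368), of the oxidases that polymerize lignin, was at 118, 71 and 2.87, a ratio of S1 to S3 of 41.3 (29.9 to 58.6). The 2 higher members were laccase 110a (Unigene58379, 2, 78 and 84 reads) and a hydroxycinnamoyl transferase (Unigene70187, 14, 200 and 285). Peroxidases, which also couple wall phenolics, had 5 of 21 lower and 1 higher (Unigene61193, 0, 126 and 44 reads), while the cationic peroxidase EZ733400 was nearly level, at 296, 369.9 and 312.

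**Figure D4:**
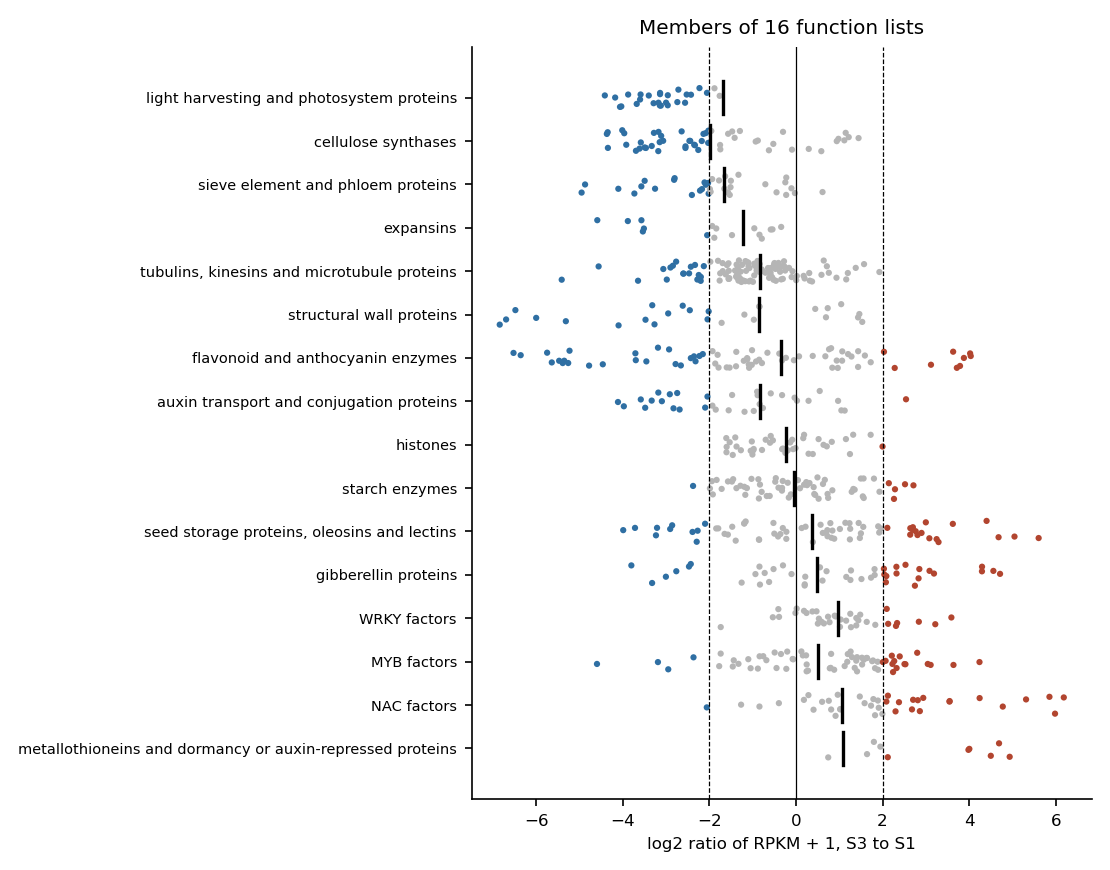
Log2 ratio of RPKM + 1, S3 to S1, of each member of 16 function lists, with dashed lines at 4 times in each direction, colours past those lines, and a black bar at the median of all the list's sequences with a read. Photosystem and sieve element points lie almost wholly to the left, NAC and WRKY points mostly to the right, and flavonoid and gibberellin points on both sides.

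Growth genes differed among themselves. Tubulins, kinesins and other microtubule proteins, which guide cellulose deposition and build the division apparatus, had 18 of 111 members at least 4 times lower and 0 higher, a list median of -0.84, and 8339, 6375 and 3955 RPM. An alpha-tubulin (EZ730116) was at 1080.5, 915 and 417 and beta-1 tubulin (JK201692) at 84.7, 30.5 and 1.02. DNA replication proteins had 2 of 51 members at least 4 times lower, a replication factor C (Unigene21630, 17, 7 and 0 reads) and minichromosome maintenance 4 (Unigene38007, 30, 8 and 6), and 1 higher, a DNA polymerase (Unigene29273, 3, 3 and 19), shares below those of all members. At 2 times 18 (35.3%, against 18.7% of all members) were lower and 3 (5.88%, against 20.9%) higher. Among the lower ones were minichromosome maintenance 2 (Unigene376, 70.3, 31.6 and 17), part of the helicase that opens DNA, and ribonucleoside-diphosphate reductase (EZ728856, 108, 98.8 and 34.3), which makes its building blocks. Cell cycle proteins stood near the background, with 22 of 97 at least 2 times lower and 19 higher. The 2 past 4 times on the lower side were D1-type cyclins (Unigene57669 and Unigene26800), regulators of entry into the cycle, the first at 43.9, 30.9 and 6.01. The 1 past 4 times on the higher side was described as a Tubby and cyclin-like F-box protein (Unigene69847, 29.5, 54.4 and 142). The list's median changed sign under 1 alternative.

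Histone members differed in both directions. The core histone H2B.2 (EZ723083) was at 742, 782 and 280.5 and histone H3.2 (GW948221) at 93.1, 106 and 29.9, both lower in S3. The linker histones H1 (EZ726219 and EZ730352), which sit between nucleosomes, were higher, the first at 378, 427 and 947 and the other at 348, 421 and 777, and so was 1 histone H3 (EZ721081), at 25, 50.9 and 103. Over the list 0 of 39 were at least 4 times lower and 1 higher, and the summed reads were nearly level at 4253, 4809 and 4546 RPM. Cytosolic ribosomal proteins had 0 of 72 at least 4 times lower and 1 higher (ribosomal protein S7, EZ755737, 24.8, 35.3 and 111), with a list median of -0.36. At 2 times 17 (23.6%, against 18.7% of all members) were lower and 2 (2.78%, against 20.9%) higher. Proteasome subunits, which degrade tagged proteins, had 0 of 16 past 4 times in either direction.

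Among hormones, both auxin lists had more lower than higher members past 4 times. Auxin transport and conjugation proteins had 13 of 33 members at least 4 times lower, a list median of -0.84, and 1 at least 4 times higher. The influx carriers Unigene66197 and Unigene68717, which bring auxin into cells, were lower in S3. The first was at 164, 78.7 and 12.8, a ratio of S1 to S3 of 12.8 (9.64 to 17.4), and the other at 166, 67.1 and 15.6, a ratio of 10.6 (8.44 to 13.6), and an efflux carrier (Unigene67718) was at 109.9, 82.2 and 38.9. The member that was higher, auxin conjugate hydrolase (EZ724442, 40, 412 and 295 reads), releases free auxin from storage forms. Auxin response proteins had 15 of 61 lower and 2 higher, led by the abundant auxin-induced protein 5NG4 (Unigene66275, 301, 194 and 59.5), while an auxin response factor (Unigene71144, 75.2, 58.7 and 126) was higher by less than 4 times. A group of auxin-induced proteins drawn up later held as many past 4 times, 15 lower and 2 higher, among only 23 members. Its extreme log2 ratios were also those of this list.

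Gibberellin proteins had 16 of 44 at least 4 times higher and 6 lower, and a list median of 0.50. A group of gibberellin 20-, 3- and 2-oxidases drawn up later had 5 of 13 members at least 4 times higher and 4 lower, with 410, 325 and 471 RPM. The list's words did not catch Unigene27648, the gibberellin 20-oxidase named above. The lowest log2 ratio was thus -3.80 in the list and -6.62 in the later group. Within the list, the largest differences in the 2 directions were in enzymes of different steps, 1 member each. Gibberellin 20-oxidase 1 (EZ722351), which makes active gibberellin precursors, was at 159, 61.2 and 10.5, a ratio of S1 to S3 of 15.2 (11.6 to 20.1). Gibberellin 2-oxidase (Unigene16197), which inactivates the hormone, was at 3.35, 18.1 and 113, a ratio of S3 to S1 of 33.8 (21.5 to 56.5). A receptor of the GID1 class (Unigene47304) was at 37.6, 53.1 and 192, and a DELLA protein (Unigene66671), the repressor that the receptor removes, at 169.6, 91.5 and 102.

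Of the other hormones, abscisic acid proteins had few members, and 0 of 6 were at least 2 times lower while 4 were higher, 1 of them by 4 times, among them zeaxanthin epoxidase (Unigene65959, 12, 12 and 82 reads), an early enzyme of its synthesis, and an abscisic acid-activated protein kinase (Unigene68600, 43.1, 55.9 and 143). Ethylene proteins had 2 of 43 lower and 2 higher at 4 times, with opposite members of the last enzyme of synthesis, since 1-aminocyclopropane-1-carboxylic acid oxidase EZ723123 was at 134, 125 and 16.6 and the sequence named ACC oxidase, EZ728087, at 2.28, 6.44 and 27.3. An ethylene insensitive transcription factor (Unigene68842), of the class that carries the signal into the nucleus, was at 57, 92.1 and 266. Cytokinin proteins had 1 of 27 past 4 times in each direction, a type-B response regulator (Unigene71361, 28.2, 35.1 and 147) and a receptor piece (Unigene37302, 40, 16 and 3 reads).

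Brassinosteroid and sterol proteins had 9 of 63 at least 4 times lower and 2 higher. The synthesis enzyme LKB (EZ730963) was at 256, 139 and 36.2, a ratio of S1 to S3 of 7.07 (6.32 to 7.93), and the 2 higher members were receptors, JK198976 (8, 11 and 274 reads) and the receptor kinase Unigene47867 (1, 11 and 28). Jasmonate and lipoxygenase proteins had 8 of 50 lower and 6 higher, yet the summed RPM values were 8890.2, 8669.9 and 2467, with abundant lipoxygenases on the lower side and a list median that changed sign under some alternatives. JK186994, JK183164 and JK194815 had ratios of S1 to S3 of 5.84 (5.58 to 6.12), 6.24 (5.85 to 6.65) and 6.28 (5.61 to 7.05). Another lipoxygenase, GW978495, had 3, 684 and 104 reads and was highest in S2.

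The transcription factor lists had more higher than lower members, and their medians over members stayed above 0 under the alternatives run. NAC factors had 17 of 39 members at least 4 times higher and 1 lower, and 24 of the members qualified through S3 alone. Over all 69 NAC sequences with a read the median was 1.06, and the summed reads were 416, 608 and 1315 RPM. Beside the pair among the 12 largest, NAC1 (Unigene63834) was at 3.99 (2.13 to 6.83), 14.3 (10.4 to 19.2) and 198 (183 to 213). The single NAC member past the limit on the lower side was the secondary wall thickening promoting factor 1 (Unigene12567, 33.8, 31.7 and 7.36), named for its role in fibre walls. WRKY factors, which act in defence and senescence, had 7 of 36 higher and 0 lower, and a list median of 0.96. WRKY24 (EZ721106) was at 11.3, 14.6 and 114 and WRKY8 (Unigene37339) at 46.4, 61.8 and 202, while WRKY40 (Unigene63530, 18.4, 16.5 and 4.83) was lower.

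MYB factors had 15 of 66 at least 4 times higher and 4 lower, with 1197, 1622 and 2634 RPM. The most abundant, MYB93 (EZ723488) and MYB173 (EZ744058), were at 112, 158 and 383 and at 113, 253 and 350.5, and MYB177 (Unigene47833) had 0, 1 and 33 reads. An R2R3 factor (Unigene66906), of the class that includes regulators of pigments and walls, was at 46, 31.7 and 0.947 in the opposite direction. Homeobox, MADS and other patterning factors had 8 of 112 higher and 6 lower at 4 times, near the background. At 2 times 34 (30.4%, against 20.9% of all members) were higher and 10 (8.93%, against 18.7%) lower. The extremes were the homeodomain leucine zipper protein HDZ2 (EZ730127, 1.28, 7.07 and 86.8) and the knotted-like homeobox KNOX2 (Unigene46891, 167, 40.4 and 3.89), a family that keeps meristem cells undifferentiated. A FRUITFULL-like MADS factor (Unigene63346), named after a fruit development gene of Arabidopsis, was at 146, 127 and 208.

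Among stores, sequences named as seed storage proteins, oleosins and lectins had 17 of 69 members at least 4 times higher and 10 lower, with 8491, 25736 and 16554 RPM and the peak in S2. The list's median changed sign under 1 alternative. Its most abundant members were lectins and an allergen of the pathogenesis-related class. The lectin EZ735837 was at 394, 2685 and 2463, a ratio of S3 to S1 of 6.24 (6.01 to 6.49), and Ara h 8 (EZ726452), a pathogenesis-related protein and not a store, at 343, 3961 and 1486. Agglutinin-2 (EZ733595), another lectin, was close between the ends, at 1338, 1862 and 1043, and the bark agglutinin Unigene49891 was at 39.4, 13.8 and 1.54. Among true stores, chosen after their values were seen, the vicilin-type globulin Ara h 1 (EZ731610) was at 709, 803 and 1092 and the 2S albumin Ara h 2 (EZ734127) at 204, 287 and 485, both higher in S3 by less than 4 times. Late embryogenesis abundant proteins and dehydrins, which protect drying cells, had 5 of 16 higher, namely seed maturation proteins PM39 (EZ757937, 16, 6 and 270 reads) and PM40 (Unigene522, 26, 81 and 225), a pair of lea protein 3 sequences (EZ728043 and EZ723610) and a group 1 protein (EZ730817, 0, 0 and 73). A group 9 protein (EZ731492) went the opposite way, 214, 11.8 and 4.04, a ratio of S1 to S3 of 53 (38.6 to 74.8).

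Starch enzymes, which build and break the main plant carbohydrate store, had 5 of 60 higher and 1 lower, with a median near 0 that changed sign under 1 alternative. ADP-glucose pyrophosphorylase (EZ721940), which makes the sugar donor for starch, was at 42.3 (39 to 45.8), 49.4 (45.8 to 53.2) and 210.2 (203 to 218). The others were a starch synthase IIa (EZ746252), an alpha-amylase (Unigene49586) and a pair of beta-amylases (Unigene17792 and Unigene48435), all below an RPKM of 5 in S1. The lower one was another beta-amylase (EZ756523, 29.6, 12.7 and 4.9). Sucrose enzymes and sugar transporters had 13 of 70 lower and 6 higher. Acid invertase (Unigene72190), which splits sucrose in growing cells, was at 127, 21.8 and 4.21, a ratio of S1 to S3 of 30.1 (22.5 to 41.2), whereas the abundant sucrose synthases EZ722138 and EZ721504 were nearly level, the first at 373, 519 and 356.6, and another, GW992499, was at 1039.6, 803 and 218. A sugar transporter (Unigene10908) was at 7.92, 55.9 and 67.9.

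Fatty acid and storage lipid enzymes had 10 of 36 at least 4 times lower and 1 higher. Acyl carrier protein 5 (EZ743755), the carrier of growing fatty acids, was at 97.2, 89.9 and 42.4 and enoyl-ACP reductase (FJ768731) at 60.6, 42.5 and 18.1. The higher one, a soluble diacylglycerol acyltransferase (EZ730748), of the class that completes storage oil, was at 7.02, 14.5 and 31.5. Asparagine and glutamine synthetases had 6 of 16 higher and 0 lower, with 916, 1672 and 2007 RPM, and all 6 were asparagine synthetases. Unigene54208 was at 11.7, 212 and 756, a ratio of S3 to S1 of 64.6 (43.6 to 100.1), while the glutamine synthetase EZ724846 was at 296, 495 and 354. The other 7 asparagine synthetase members, among them EZ740245 (74.7, 77 and 54.9) and EZ741436 (65.9, 121 and 86), which were chosen after their values were seen, differed by less than 2 times. Nodulin-named proteins had 7 of 23 lower and 3 higher, the higher ones being MtN9 (GW964618), MtN19 (Unigene34931) and a putative nodulin (Unigene3471).

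**Figure D5:**
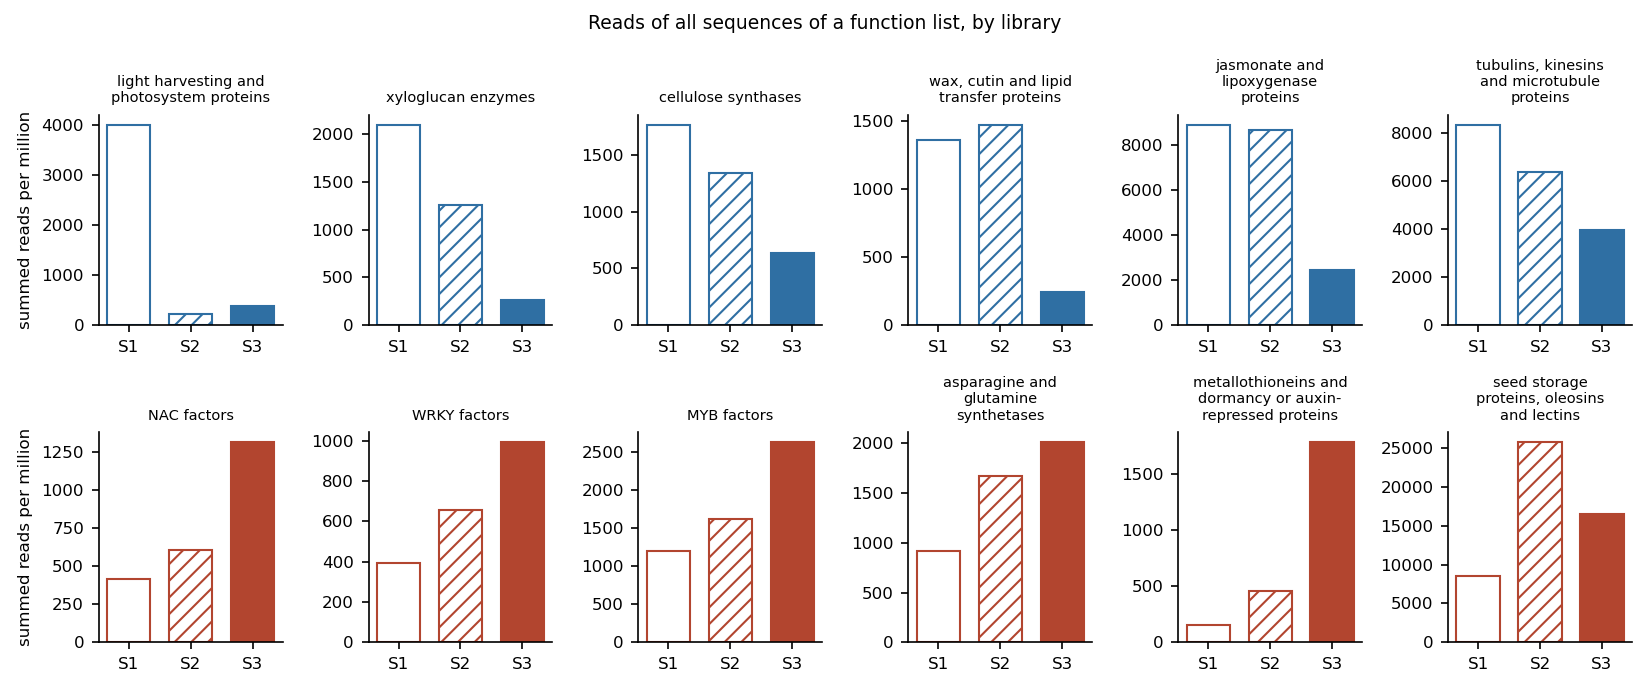
Summed RPM of all sequences of 12 function lists in S1 (open), S2 (hatched) and S3 (filled), each panel with its own axis from 0. The upper row shows lists with lower sums in S3 than in S1 and the lower row lists with higher sums, where the storage and lectin list peaks in S2.

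All 10 members named as metallothioneins, which bind metals, or as dormancy or auxin-repressed proteins, which mark resting buds and slow growth, were higher in S3, 6 of them at least 4 times. Their sums were 151, 456 and 1784 RPM. Of the 10, 4 qualified through S3 alone and so had to be higher there. The median over the list's 20 sequences with a read was 1.086. The auxin-repressed protein EZ721480 was at 60.3 (53.3 to 67.8), 252 (237 to 267) and 1386 (1352 to 1419.8), a ratio of S3 to S1 of 23 (20.4 to 26), and another, EZ724648, at 38.6, 141 and 626. The metallothionein-like JK189029 was at 13.8, 78.6 and 382 and JK193451 at 1.37, 8.25 and 71.7, and these 4 showed the same order of stages, S1, S2, S3. Heat shock proteins had 12 of 101 higher and 4 lower with sums of 6311, 7414 and 7072, and a list median that changed sign under some alternatives. Members of its major chaperone class differed in opposite directions, the cognate protein 1 (EZ735646) at 5.1, 16.7 and 54.8 and heat shock protein 70-3 (Unigene69094) at 257, 228 and 51.5.

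Low-oxygen and fermentation enzymes, which keep energy supply going where oxygen is short, had 4 of 25 lower and 1 higher, again with a median whose sign depended on the alternative. Alcohol dehydrogenase 1 (EZ730891) was at 116, 150.03 and 52.6, and the higher member, an alcohol dehydrogenase (Unigene58915), at 12.6, 135 and 117. Defence proteins and protease inhibitors were balanced at 4 times, 15 lower and 14 higher of 143, although their summed reads were 8194, 9237 and 4549 RPM. A Kunitz trypsin inhibitor (EZ729144) was at 1015, 947 and 249.6, a chitinase homologue (EZ744030) at 785, 521 and 342 and defensin D2 (EZ721453) at 1195, 1571 and 916.

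Aquaporins, the water channels, had 7 of 32 members at least 4 times lower and 0 higher. The plasma membrane channel PIP2;3 (EZ730212) was at 378, 233 and 111 and the vacuolar TIP-type channel EZ730756 at 493, 409 and 151, while PIP1;1 (EZ722649) was nearly level at 353, 378 and 363. Mineral ion transporters stood near the background, 6 of 73 higher and 4 lower, with a phosphate transporter (JK196575, 3.34, 13.1 and 28.3) and a nitrate transporter (EZ751099, 14.6, 26.6 and 67.2) on the higher side. Sieve element and phloem proteins, which seal wounded phloem, had 16 of 35 lower and 0 higher, a list median of -1.65, and 1292, 935 and 522 RPM. The sieve element occlusion piece Unigene56948 was at 55.3, 12.3 and 0.823, whereas Unigene58763 was at 178, 115 and 176, nearly equal in S1 and S3.

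Large enzyme families had members past 4 times in both directions. Cytochrome P450 enzymes, oxidases of hormones and defence compounds, had 30 of 160 lower and 27 higher, from CYP81E8 (Unigene71222, 570, 4 and 1 reads) to CYP71A10 (Unigene71449, 6, 22 and 350). UDP-dependent glycosyltransferases, which attach sugars to small molecules, had 21 of 129 lower and 8 higher, from a flavonoid 3-O-glucosyltransferase (Unigene51169, 266, 3 and 1 reads) to the glycosyltransferase GT07O02 (Unigene27145, 0, 4 and 19). Vacuolar and secreted proteases had 10 of 114 lower and 12 higher, with the abundant papain-type EZ736137 nearly level at 1101, 1394 and 1114 and a subtilisin-like protease (EZ721992) at 0.608, 1.89 and 35.3.

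Gene Ontology terms, which 21698 members carry, reach the sequences without a named function as well. Among the 47 process terms with at least 100 members, the highest shares at least 4 times lower in S3 were in glucan biosynthesis (44 of 128, with 0 higher), organization of external encapsulating structures, which is mainly the wall (49 of 169), and response to radiation (38 of 138). Among the 23 component terms they were in chloroplast thylakoid (102 of 351), extracellular region (97 of 348) and cell wall (88 of 358). The highest shares at least 4 times higher were in fatty acid biosynthesis, where 14 of 113 were higher and 30 lower, in response to stimulus (21 of 193) and in transcription (20 of 190, with 5 lower). The terms were ranked after their values were seen.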

How the data were processed

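Poly(A) RNA of 3 gynophore stages had been sequenced by the authors on an Illumina HiSeq instrument, with 1 library per stage. The deposited table gives, for each assembled unigene or public peanut sequence, the count of uniquely aligned reads and the RPKM made by the authors from that count, the sequence length and the library total. Its coverage columns, deposited as a percent of each sequence covered by reads, were not used for a result. The name of the aligner was not given in the sources used here. RPKM recomputed from the counts equalled the deposited values to within rounding.

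Members were sequences with a Blast nr description and an RPKM of at least 10 in S1 or S3, compared as log2 of the ratio of RPKM + 1. Intervals at 95% were exact Poisson or Clopper-Pearson intervals and cover counting error only, and a floor of 3 reads stood for a library with none. Lists are word matches in the opening part of the description and were not curated, so that some hold related proteins: for example, a sucrose synthase carries a nodulin name as well. The text names the 12 largest differences in each direction and the 5 highest RPKM values in S1 and in S3. Within a list it draws on the largest difference in each direction and the 3 highest mean RPKM values, and names some of these or none. Some further members, of lists in which 5 or fewer passed 4 times or of groups drawn up later, were chosen after their values were seen. The members and lists were chosen with earlier results of these data known.

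No identifier matched the supplied RefSeq gene table (0 matches), so sequences and genome positions are not given here, and fragments of the same transcript were not joined. Calculations were run in Python 3.11.15 with scipy 1.17.1, numpy 2.4.6, pandas 2.3.3 and, for plots, matplotlib 3.10.9, and the steps were tested on simulated data. Alternatives were rescaling by the median of ratios or the upper quartile, a pseudocount of 0.1, other limits on RPKM, length (300 bases) and reads (50), each sequence source alone, and word matches anywhere in the description.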

Additional observations from a re-analysis of the deposited data

Results flagged for a closer look

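Sequences outside the comparison also held signal. Of the annotated sequences, 1228 had an RPKM of at least 10 in S2 and under 10 in both S1 and S3. The highest of these in S2, JK204111, is matched to an unknown protein and had 7, 616 and 23 reads.

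Of the 10618 sequences without a description that reached an RPKM of 10 in S1 or S3, 1789 were at least 4 times higher or lower in S3. These divided into 1245 higher (11.7%) and 544 lower (5.12%), with a median log2 ratio of 0.66, against 0.11 over the annotated members. The largest difference toward S3 was JK169347, with 1, 3 and 411 reads, and the largest toward S1 was Unigene26790, with 3904, 76 and 3.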

How the results depend on the processing

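No paired analysis was possible because a stage is a single library here, which also means that no library could be left out. The 4 counts, higher and lower in S3 by 4 times and then by 2 times, moved by over 1.5 times under 3 alternatives, each of which tests fewer sequences by construction. They were 493, 742, 1559 and 1769 at an RPKM of at least 50, 958, 1252, 4162 and 3693 among unigenes, and 653, 646, 2137 and 1952 among public sequences. Among public sequences 50.3% of the sequences past 4 times were higher in S3. At 2 times, rescaling turned the balance, from 52.7% higher to 40.2% with the median of ratios and 41.5% with the upper quartile.

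Of 535 list medians over members computed under the alternatives, 481 stayed within a binomial interval of the list's own median and 54 did not. The sign was opposite in 34, from 15 lists, and 12 of these, from 8 lists, also lay outside the interval. Of the 27 lists whose interval excluded 0, 2 changed sign. With every sequence that had a read, the median of the GDSL-motif list was -0.93, where its single member alone gave 1.41, and that of cytochrome P450 enzymes 0.18, where members alone gave -0.25. The GDSL-motif list holds only 4 sequences. It missed Unigene69514, which the study calls a GDSL-motif lipase and which was far lower in S3. Of 1143 alternative values of 381 sequences that the naming covers, 961 stayed within counting error and 182 moved. The sign changed in 9 sequences, and in 0 of the 298 that differed by at least 2 times. Short sequences passed 4 times more often: 7.95% lower and 6.82% higher under 300 bases, against 4.69% and 3.79% from 1000 bases upward. Depth sets the width of every interval: a member had at least 10 reads in its higher library.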

Other observations

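Further gene groups were drawn up after the values had been seen, and their counts are descriptions of these libraries. As in the lists, members that qualified through 1 library alone had to differ in that direction. Within the hormone lists, 8 of 10 gibberellin receptor members were at least 4 times higher in S3 and 0 lower, with 82.9, 169 and 332 RPM in S1, S2 and S3. A group of auxin-induced proteins, 5NG4 (Unigene66275) among them, had 15 of 23 lower and 2 higher. These counts and the extreme log2 ratios of -4.79 and 3.56 equal those of the auxin response list, so they are not a further result. Of the 23, 14 qualified through S1 alone, and the median over sequences with a read was -0.35. GH3 proteins, which conjugate auxin and other hormones to amino acids, had 6 of 7 lower. Of the 7, 6 qualified through S1 alone, and the median over sequences with a read was -0.67. The summed GH3 reads were 141, 80.3 and 172 RPM and so not lower in S3, where 1 sequence (Unigene165) held 95% of them. Within the lignin list, 9 of 11 laccase members were lower and 1 higher (665, 444 and 57.5 RPM). Of these 11, 10 qualified through S1 alone, and the median over sequences with a read was -0.84. Kinesins, the motors of microtubules, had 14 of 69 lower and 0 higher, and 31 of the 69 qualified through S1 alone. Of nitrogen enzymes, glutamate synthases had 8 of 24 lower and 0 higher, with 861, 486 and 363 RPM, while asparagine synthetases summed to 292, 665 and 1259.8. Among the 24 glutamate synthase members, 9 qualified through S1 alone.

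Germin-like proteins had 4 of 5 members lower in S3, with 2425, 1642 and 264 RPM, of which a single sequence (EZ739983) held 97.3% in S1 and 87.7% in S3. Of the 5, 3 qualified through S1 alone, and the median over sequences with a read was -0.38. In the same direction, vicianin hydrolases and beta-glucosidases, which release sugars from glycosides, had 18 of 49 lower and 3 higher, with 5214, 2784 and 1157. Beta-galactosidases had 9 of 31 lower and 0 higher. In the other direction, retrotransposon and reverse transcriptase proteins had 12 of 61 higher and 1 lower, with 587, 542 and 1209.6 RPM, and 28 of the 61 qualified through S3 alone. Proteins of the Ara h 8 and Bet v 1 class had 5 of 7 higher, with 354, 4192 and 1699.6, so that S2 was highest, and 1 isoform (EZ726452) held 87.7% of the sum in S1 and 79.1% in S3. Of these 7, 5 qualified through S3 alone, and the median over sequences with a read was 1.04. Synthases of 1-deoxy-D-xylulose 5-phosphate, the entry enzyme of plastid isoprenoids, had 5 of 9 higher and 0 lower at 4 times, yet a list median of -0.43 and summed reads of 105, 122 and 97.5 RPM. Of these 9 synthases, 5 qualified through S3 alone. F-box proteins, which select proteins for degradation, had 7 of 64 higher and 1 lower, and 24 of the 64 qualified through S3 alone. Catalases, which remove hydrogen peroxide, had 0 of 9 past 4 times and 5 (55.6%, against 20.9% of all members) at least 2 times higher.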
